A study of Mus musculus with 27 samples.

Results

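Mycn and the D-type cyclins Ccnd1 and Ccnd2 were followed in mouse medulloblastoma through 11 of the 45101 probe sets of an expression array, 1 for Mycn, 3 for Ccnd1 and 7 for Ccnd2. The members were taken by probe set identifier, not by a cut on their values, though with earlier results of these data known. Mycn is a MYC-family transcription factor that granule neuron precursors of the cerebellum express under Hedgehog signalling, and medulloblastoma of the Hedgehog type arises from those precursors. D-type cyclins bind Cdk4 or Cdk6, and the resulting kinases phosphorylate the retinoblastoma protein, which releases E2F factors and lets a cell pass from G1 into S phase. Ccnd1 is best known as the growth-factor-responsive D-type cyclin, and mice without Ccnd2 form fewer cerebellar granule neurons.

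The tumours were Ptch+/-p53-/- medulloblastomas, mutant in 1 copy of the Hedgehog receptor gene Ptch and lacking p53, in all groups including vehicle. Dissociated tumour cells were grown in the flank of Harlan nu/nu mice, an athymic host that keeps its own stroma, vessels and innate immune cells. Dosing began about 10 days later. NVP-LDE225 (LDE225) blocks Smoothened, the membrane protein through which Hedgehog signalling passes. RNA came from 21 tumours on 1 array each. Of 5 resistant tumours, 3 had received LDE225 at 160 mg/kg/day and 2 at 20 mg/kg/day, split over the morning and evening of each day and collected on day 26. Of the 8 sensitive LDE225 tumours, which had received 20 mg/kg/day once daily, 3 were collected at 4 h, another 3 by 16 h and the remaining 2 by 48 h. The 8 vehicle tumours were divided over these times in the same numbers. Resistance therefore came with a longer exposure and another schedule, and these cannot be told apart from it. None of the RNA vehicle tumours was labelled as collected on day 26, so the time of collection cannot be told apart from resistance either. In 3 of the 5 resistant tumours it also came with a higher daily dose. DNA came from 6 tumours, 3 of them resistant (1 each at 40, 80 and 160 mg/kg/day) and 3 given vehicle, all 6 treated for 26 days and each hybridised against liver DNA. The 160 mg/kg/day DNA tumour is called vehicle in its title but resistant in its status, treatment and dose labels, and was grouped by those. Animals' ages were not given.

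Levels are MAS5 signals, a linear brightness with no absolute unit, so levels of different probe sets were not set against each other. Differences are on the log2 scale, after adding 4 to each signal, with their standard error (SE) and a limma p adjusted over the 32842 probe sets tested. A difference was called when that p was below 0.05, and all 11 members passed the filter on low signal. The mean signal of the arrays lay between 221 and 256. For the beta-actin control the 3'/5' signal ratio, a sign of RNA integrity, was 1.25 to 1.40 in the 9 tumours that were resistant or sampled at 48 h, and 1.53 to 1.91 in the 12 tumours of 4 h and 16 h. These are bulk tumours, in which fewer cells of a type and less RNA per cell cannot be told apart, and the p-values measure the spread between tumours. The brightest probe set of each gene, 1417155_at for Mycn, 1448698_at for Ccnd1 and 1416122_at for Ccnd2, is the one meant below where none is named.

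The promoter of Mycn is shown for its place in the pathway described above: E2F factors are released downstream of the D-type cyclins, and E2F sites have been described in the promoter of human MYCN. The 250 bases before its start (RefSeq, GRCm38.p6, chr12:12941837-12942086, minus strand) are given 5′ to 3′, with capitals marking each match to the E2F motif TTTGGCGC.
Mycn: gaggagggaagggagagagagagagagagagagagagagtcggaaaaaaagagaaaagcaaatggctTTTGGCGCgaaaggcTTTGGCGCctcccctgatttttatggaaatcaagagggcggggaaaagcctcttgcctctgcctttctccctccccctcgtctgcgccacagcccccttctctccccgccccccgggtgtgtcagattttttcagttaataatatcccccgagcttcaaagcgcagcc
The motif occurred 2 times, at 183 to 176 and 168 to 161 bases before the start. It was found on either strand in 137 of 32851 promoters of that length (0.417%). The GLI motif GACCACCCA (0.225% of promoters) and the E-box CACGTG (6.02%) had no match in this window, searched on both strands. None of the 3 motifs contains another. A match describes letters only, and binding was not measured.

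Mycn was lower in each group of sensitive LDE225 tumours than in its vehicle group, and the difference passed the test at 48 h. Its signal at 4 h was 499.6, 405 and 613 in LDE225 tumours, against 789.5, 849.6 and 977 in vehicle tumours. At 16 h it was 983, 427 and 499.5 in LDE225 tumours, against 725, 1057 and 1119.8 in vehicle tumours. At 48 h it was 279 and 265 in LDE225 tumours, against 999.9 and 923 in vehicle tumours. The groups were apart at 4 h and at 48 h, whereas at 16 h LDE225 tumour 1 lay within the vehicle range and the other 2 lay below it. Over all probe sets, 13.6% had groups apart at 4 h and 64.5% at 48 h, with 2 tumours a side. The difference was -0.79 (SE 0.35, adjusted p = 0.755) at 4 h and -0.67 (SE 0.35, adjusted p = 0.231) at 16 h, neither of which passed. At 48 h Mycn fell by 1.81 (SE 0.43, limma adjusted p = 0.00524), when 11.1% of all probe sets tested were called lower. Leaving out any of the tumours at 48 h kept the call, with adjusted p up to 0.0401 over all such fits. The change in the LDE225 effect between 4 h and 48 h was -1.01 (SE 0.56, adjusted p = 0.259), so the 48 h effect was not shown to exceed the 4 h one.

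Ccnd1 fell under LDE225 in steps: about 2-fold at 4 h and 16 h, and about 7-fold at 48 h. At 4 h its signal was 1816, 1616 and 1930.1 in LDE225 tumours, against 3299.9, 3242 and 4372 in vehicle tumours. At 16 h it was 1687, 1356 and 1566 in LDE225 tumours, against 2451, 3464 and 3244 in vehicle tumours. At 48 h it was 439 and 412 in LDE225 tumours, against 2690.2 and 3463 in vehicle tumours. At every time all LDE225 tumours lay below all vehicle tumours, and the 48 h LDE225 tumours lay below every other tumour of the series. Groups did not overlap, in either direction, for 13.6%, 35.8% and 64.5% of all probe sets at 4 h, 16 h and 48 h. Ccnd1 fell by 1.01 at 4 h (SE 0.17, limma adjusted p = 0.0183), at a time when 0.104% of all probe sets were called in either direction and 0.0944% were called lower. It fell by 0.98 at 16 h (SE 0.17, adjusted p = 0.000546). At 48 h it fell by 2.83 (SE 0.21, adjusted p = 1e-07), a 7.12-fold decrease. The 4 h call was lost in 5 of the 6 fits that left out 1 tumour of these groups, without any of the vehicle tumours and without LDE225 tumour 1 or 2, with p up to 0.162 and a difference between -1.09 and -0.87.

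The other two Ccnd1 probe sets had differences of the same sign at each time. At 4 h 1417419_at and 1417420_at each differed by -0.81 (SE 0.19) with adjusted p of 0.251 and 0.259, and their groups did not overlap either, as for 13.6% of all probe sets. At 16 h 9 of the 11 members were called, against 14.4% of all probe sets. All 3 Ccnd1 probe sets were called lower, at -0.70 to -1.05, when 6.53% of all probe sets were. At 48 h 5 members were called, against 22.7% of all probe sets, and all 3 of Ccnd1 were again lower. Probe set 1417419_at stood at 180 and 149 in LDE225 tumours, against 1504.8 and 1503.7 in vehicle tumours, a difference of -3.17 (SE 0.24, adjusted p = 1.04e-07) or 8.99-fold. The LDE225 effect at 48 h minus that at 4 h was -1.82 to -2.36 for the 3 probe sets (adjusted p from 0.000125 to 0.000292), while 12.8% of all probe sets passed this test in either direction. Between 4 h and 16 h the effect differed by -0.24 to 0.10, with none called. Within the LDE225 tumours, 48 h stood below 16 h in all 3, at -1.65 to -1.84 on the log2 scale (adjusted p up to 6.06e-05). Of all probe sets 21.2% were called in either direction and 10.6% were called lower. The actin 3'/5' ratio was 1.26 and 1.33 on these 48 h arrays and 1.58 to 1.91 on those of 16 h. Its part in the difference was not tested.

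Ccnd2 rose at 16 h, opposite to Ccnd1, but had not risen at 4 h. Its signal at 4 h was 683, 334.5 and 433 in LDE225 tumours, against 675, 754 and 624 in vehicle tumours. At 16 h it was 2375, 1619.5 and 2489 in LDE225 tumours, against 377, 512 and 657 in vehicle tumours. At 48 h it was 2247 and 2153 in LDE225 tumours, against 1105 and 1232 in vehicle tumours. The groups overlapped at 4 h through LDE225 tumour 1 and were apart at 16 h and 48 h. The difference at 4 h was -0.56 (SE 0.48, adjusted p = 0.945). Over the 7 Ccnd2 probe sets it was -0.65 to -0.37 at 4 h, except 0.02 for 1416124_at, and 0 were called, against 0.104% of all probe sets. For 2 of the 7, 1434745_at and 1448229_s_at, all LDE225 tumours lay below all vehicle tumours at 4 h. Groups did not overlap at 4 h, in either direction, for 13.6% of all probe sets. At 16 h Ccnd2 rose by 2.07 (SE 0.48, limma adjusted p = 0.0066), a 4.2-fold increase.

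Of the 7 Ccnd2 probe sets, 6 were called higher at 16 h, by 1.64 to 2.07, when 7.87% of all probe sets were. The seventh, the dim 1416124_at, differed by 1.62 (SE 0.55, adjusted p = 0.0574). Without vehicle tumour 1 only 1416122_at of the 7 was called (adjusted p = 0.0401), against 8.67% of all probe sets. Of 7 fits without 1 array, 1416123_at was called in 3, and 1430127_a_at and 1448229_s_at in 4 each. At 16 h 10 of the 11 members had groups that did not overlap, Mycn being the exception, against 35.8% of all probe sets. The effect at 16 h minus that at 4 h was 2.63 for 1416122_at (SE 0.68, adjusted p = 0.0365), and 4 of 7 passed (2.29 to 2.63), against 3.83% of all probe sets in either direction and 1.66% higher. Each of those 4 calls was lost under at least 2 of the 9 alternative settings, and 0 or 1 member remained called in 11 of the 12 fits that left out 1 tumour of 4 h or 16 h.

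At 48 h the difference in Ccnd2 was 0.91 (SE 0.59, adjusted p = 0.294) for 1416122_at, and 1 of 7 probe sets was called higher, 1448229_s_at at 1.53 (SE 0.52, adjusted p = 0.0419), against 11.6% of all probe sets. Its call was lost without vehicle tumour 3 (adjusted p = 0.329) and without either LDE225 tumour (adjusted p of 0.114 and 0.168). All 7 had groups that did not overlap, as had 64.5% of all probe sets at this time with 2 tumours a side. The fit shares 1 spread over all 8 groups, and the SD of Ccnd2 within groups, on the log2 scale, was 1.63 in resistant tumours at 160 mg/kg/day and 0.04 to 0.52 in the other groups. In a fit of the 48 h tumours alone 6 of 7 Ccnd2 probe sets passed, against 18.3% of all probe sets, the lowest p being 0.00601 for 1455956_x_at. With resistant tumour 1 of the 160 mg/kg/day group left out of the shared spread 6 of 7 passed as well, against 24.3%. In both of these fits 1416124_at was the one that did not pass. Among LDE225 tumours Ccnd2 at 48 h differed from 16 h by 0.05 (SE 0.54, 95% confidence interval -1.08 to 1.18), with 0 of 7 called, against 21.2% of all probe sets.

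**Figure D1:**
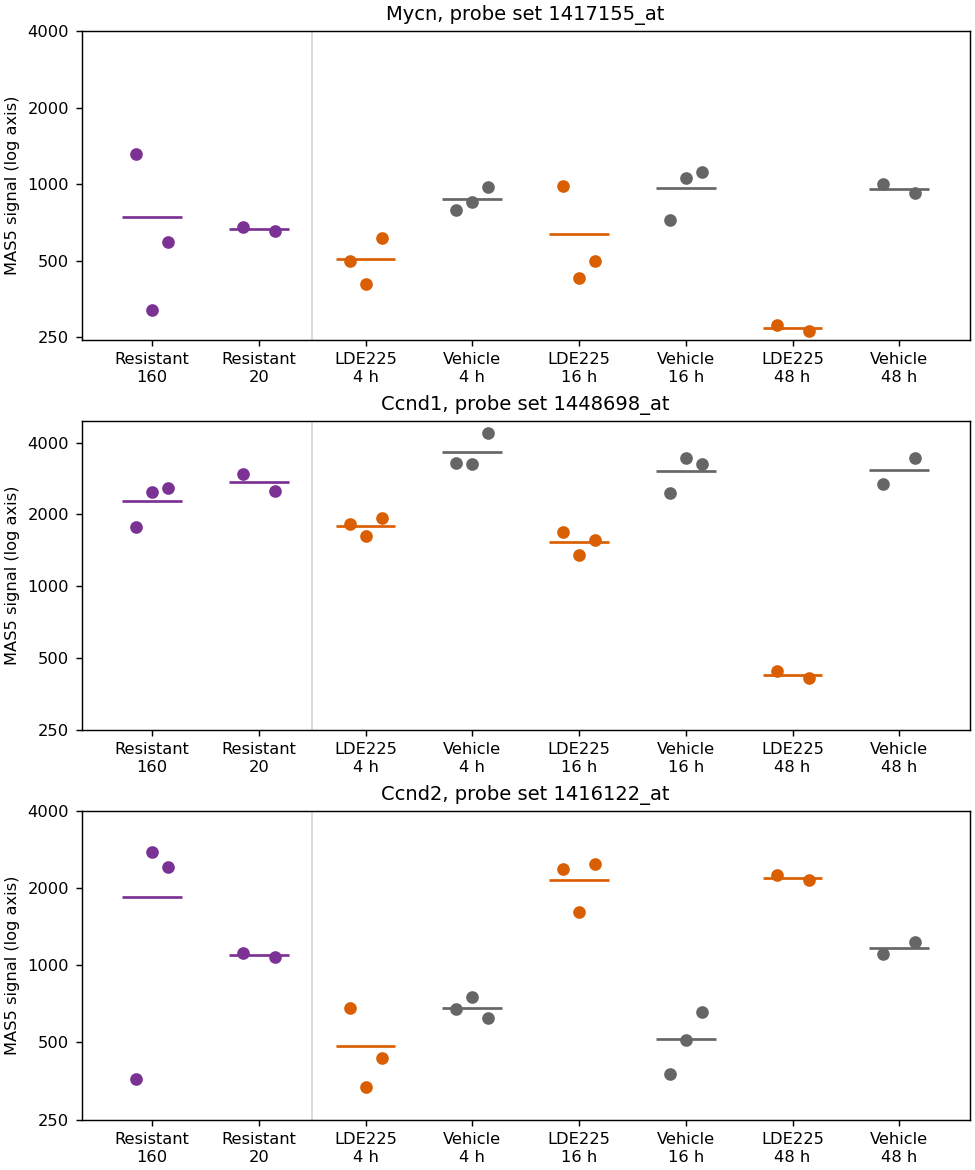
MAS5 signal (vertical, log axis) of the brightest Mycn, Ccnd1 and Ccnd2 probe set in each of the 21 tumours, by group (horizontal), with a point per tumour and a line at the group mean. Ccnd1 in the 48 h LDE225 tumours sits at 412 and 439, below all other tumours, and Ccnd2 in the 16 h LDE225 tumours sits at 1619.5 or more, above all vehicle tumours.

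The vehicle tumours were not level over time for every member. Ccnd2 in vehicle tumours was 624 to 754 at 4 h, 377 to 657 at 16 h, and 1105 and 1232 at 48 h, and 5 of its 7 probe sets had 48 h and 4 h groups that did not overlap, against 31.7% of all probe sets. None was called (limma adjusted p from 0.192 to 0.893), while 0.746% of all probe sets were called. Mycn in vehicle tumours differed between 48 h and 4 h by 0.15 (SE 0.39) and Ccnd1 by -0.24 (SE 0.19). The actin 3' to 5' ratio also differed between these vehicle arrays, 1.25 and 1.30 at 48 h and 1.60 to 1.87 at 4 h, and its part in the Ccnd2 levels was not tested.

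In resistant tumours Ccnd1 stood near its vehicle level, while Mycn and Ccnd2 varied from tumour to tumour. Ccnd1 in the resistant tumours given 160 mg/kg/day was 1774, 2481 and 2593, and in those given 20 mg/kg/day it was 2954 and 2503, against a range of 2451 to 4372 with a median of 3272 in the 8 vehicle tumours. All resistant tumours but tumour 1 at 160 mg/kg/day lay inside the vehicle range. The difference was -0.38 (SE 0.12, limma adjusted p = 0.0491, interval -0.63 to -0.13), the only one of the 11 called, when 10.8% of all probe sets were called and 4.3% were lower. It passed in 5 of 12 alternatives and in 4 of 13 fits without 1 array, and against the 48 h vehicle tumours alone it was -0.30 (SE 0.17, adjusted p = 0.472). The actin 3'/5' ratio was 1.27 to 1.40 on resistant arrays, 1.25 and 1.30 on 48 h vehicle arrays, and 1.60 to 1.87 on vehicle arrays of 4 h and 16 h. The part of that ratio in the difference was not tested. The other 2 Ccnd1 probe sets differed by 0.10 (SE 0.14) for 1417419_at and -0.28 (SE 0.14) for 1417420_at.

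Against the sensitive LDE225 tumours of 16 h and 48 h, Ccnd1 in resistant tumours was higher. The 5 resistant tumours had 1774 to 2954, against 412 to 1687 with a median of 1356 in the 5 LDE225 tumours. The groups did not overlap for any of the 3 probe sets, as for 11% of all probe sets. Ccnd1 rose by 1.61 (SE 0.13, limma adjusted p = 1.54e-07), and all 3 probe sets were called higher, by 1.61 to 2.08, when 26.7% of all probe sets were called and 13.5% were higher. The 3 calls remained in each of the 12 alternatives and 10 fits without 1 array. Against 48 h LDE225 tumours alone the difference was 2.53 (SE 0.17, adjusted p = 2.45e-08). The actin 3'/5' ratio was 1.27 to 1.40 on resistant arrays, and 1.26 and 1.33 on LDE225 arrays of 48 h. On LDE225 arrays of 16 h it was 1.58 to 1.91, and its part was not tested for any of the 3 genes.

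Mycn in the resistant tumours given 160 mg/kg/day was 1309, 319 and 591, and in those given 20 mg/kg/day it was 680.1 and 654.5, against 725 to 1119.8 (median 950.0) in vehicle tumours. Tumour 1 at 160 mg/kg/day had the highest Mycn of all 21 tumours and tumour 2 at that dose ranked 19, with the 48 h LDE225 tumours below it, so 4 of 5 resistant tumours lay below the vehicle range. The difference from vehicle was -0.51 (SE 0.25, adjusted p = 0.205, interval -1.04 to 0.01). Without resistant tumour 1 at 160 mg/kg/day it was -0.78 (SE 0.20, adjusted p = 0.0144), and without resistant tumour 2 it was -0.27 (SE 0.21, adjusted p = 0.464). Mycn was called in 1 of these 13 fits without 1 array. Relative to LDE225 tumours of 16 h and 48 h Mycn differed by 0.68 (SE 0.28, adjusted p = 0.0786), and relative to those of 48 h alone it was higher by 1.24 (SE 0.36, adjusted p = 0.0143).

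Ccnd2 in the resistant tumours given 160 mg/kg/day was 361.5, 2760.4 and 2419, and in those given 20 mg/kg/day it was 1120.3 and 1075.5, against 377 to 1232 (median 666) in vehicle tumours. Tumours 2 and 3 at 160 mg/kg/day lay above every vehicle tumour and ranked 1 and 3 of all tumours, whereas tumour 1 ranked 20. The difference from vehicle was 0.72 (SE 0.34, limma adjusted p = 0.196), and 0 of 7 probe sets were called, against 10.8% of all probe sets. Without resistant tumour 1 at 160 mg/kg/day all 7 were called higher than vehicle, by 0.96 to 1.43, with adjusted p from 0.000159 to 0.00296, against 12% of all probe sets called, and Mycn was called lower. Without resistant tumour 2 at that dose none of the 7 was called, at 0.27 to 0.66, against 9.65% of all probe sets. Tumour 1 had the lowest Ccnd2 of the resistant tumours and tumour 2 the highest, so leaving out either moves the difference by construction. Leaving out tumour 1 also narrows the spread. An outlier test flagged neither for any Ccnd2 probe set (gap to the next value over the range 0.535 for 1416122_at, threshold 0.71). Against the 48 h vehicle tumours alone the difference was 0.06 (SE 0.50, adjusted p = 0.978).

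Compared with LDE225 tumours of 16 h and 48 h, Ccnd2 fell by 1.02 in resistant tumours for 1434745_at (SE 0.36, limma adjusted p = 0.0422) and by 1.00 for 1448229_s_at (SE 0.34, adjusted p = 0.0349), 2 of 7 called when 13.2% of all probe sets were lower. Without resistant tumour 2 at 160 mg/kg/day 6 of the 7 passed, with Ccnd1 and Mycn also called, 10 members in all against 27.5% of all probe sets. Without resistant tumour 1 at that dose the 2 calls remained with smaller differences of -0.58 and -0.62, 1416124_at was at 0.01, and Mycn was not called (0.42, adjusted p = 0.171), against 27.1% of all probe sets called. Each of the 2 Ccnd2 calls remained in 4 of 10 fits without 1 array. Of 12 alternatives, the call of 1434745_at remained in 5 and that of 1448229_s_at in 7, and neither remained with only the groups compared. The log2 SD of these probe sets in resistant tumours at 160 mg/kg/day was 1.52 and 1.30, and 0.02 to 0.69 in the other groups. The SE, from the spread shared over all groups, may therefore be too small for resistant tumours.

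**Figure D2:**
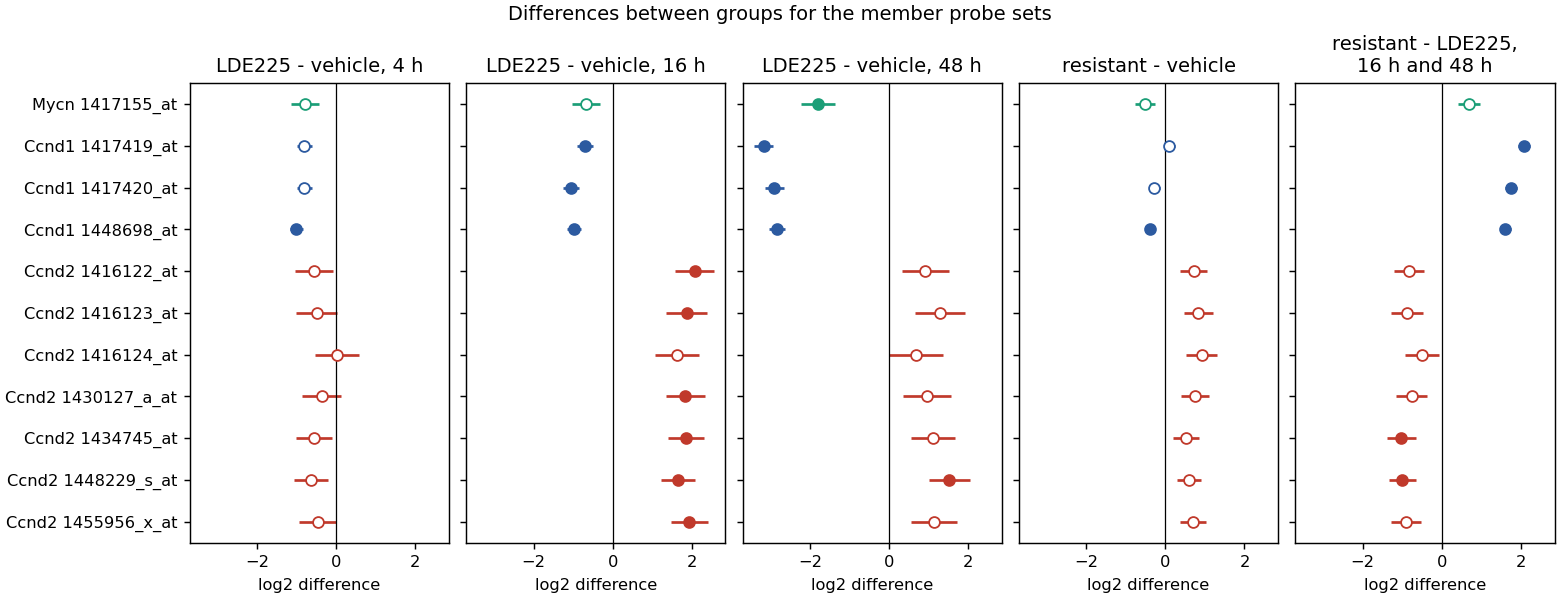
Log2 difference (horizontal) with its SE (bars) of the 11 probe sets (rows) in 5 comparisons (panels), with filled points for limma adjusted p below 0.05 and open points otherwise. Ccnd1 at -2.83 to -3.17 is the farthest from 0 at 48 h, and Ccnd2 at 1.62 to 2.07 is the farthest at 16 h.

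The doses of the resistant tumours did not separate the 3 genes. Comparing 160 with 20 mg/kg/day, the difference was -0.09 for Mycn (SE 0.39, interval -0.91 to 0.74), -0.27 for Ccnd1 (SE 0.19, interval -0.67 to 0.12) and 0.29 for Ccnd2 (SE 0.54, interval -0.84 to 1.42). None of the 11 was called (limma adjusted p from 0.474 to 0.954), against 0.773% of all probe sets. The intervals are wide, and they rest on the spread shared over all groups. Within the 160 mg/kg/day group the log2 SD was 1.015 for Mycn and 1.63 for Ccnd2, so the intervals of Mycn and Ccnd2 may still be too narrow. Without tumour 1 at 160 mg/kg/day 5 of 7 Ccnd2 probe sets were called higher at 160 mg/kg/day, 1416122_at by 1.23 (SE 0.27, adjusted p = 0.0166), against 4.14% of all probe sets.

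Across the 5 resistant tumours Mycn and Ccnd2 ran in nearly opposite order. In order of falling Mycn, Ccnd2 was 361.5 in tumour 1 at 160 mg/kg/day, 1120.3 and 1075.5 in the tumours at 20 mg/kg/day, and 2419 and 2760.4 in tumours 3 and 2 at 160 mg/kg/day. Tumour 1 at 160 mg/kg/day, with the highest Mycn, had the lowest Ccnd1 and Ccnd2 of the 5, and tumour 2, with the highest Ccnd2, had the lowest Mycn. Relative to the mean of the vehicle tumours, Mycn was 0.51 and Ccnd2 -0.94 on the log2 scale in tumour 1, and Mycn was -1.52 and Ccnd2 1.98 in tumour 2. The order was noticed in the values of 5 tumours, and no test is given for it.

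**Figure D3:**
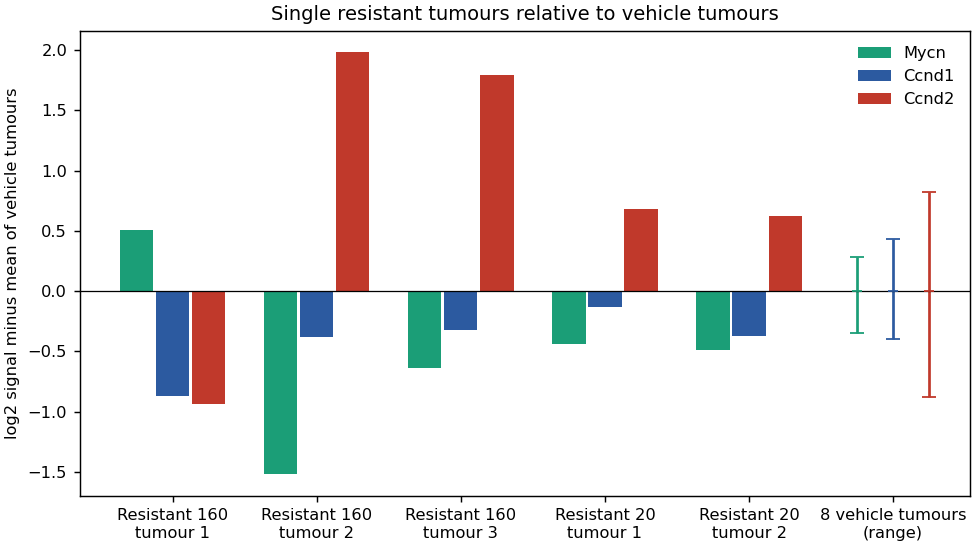
Log2 signal minus the mean of the 8 vehicle tumours (vertical) for Mycn, Ccnd1 and Ccnd2 in each resistant tumour (bars), with the range of the vehicle tumours at the right. Ccnd2 runs from -0.94 in tumour 1 at 160 mg/kg/day to 1.98 in tumour 2, while the vehicle tumours span -0.88 to 0.82.

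Ordered by group mean, Ccnd1 was highest in vehicle tumours of 4 h, 48 h and 16 h (3638 ± 636, 3076 ± 546 and 3053 ± 533, SD), followed by the resistant groups, with 2729 ± 319 under 20 mg/kg/day, then 2282 ± 444 under 160 mg/kg/day. LDE225 tumours of 4 h (1787 ± 159), 16 h (1537 ± 167) and 48 h (425 ± 19.02) came last. Each group overlapped in its values with the next in this order, except that LDE225 at 48 h lay apart. Mycn was highest in vehicle tumours of 16 h (967 ± 212), 48 h (962 ± 54.1) and 4 h (872 ± 95.5). Then came resistant tumours under 160 mg/kg/day (739.6 ± 512) and under 20 mg/kg/day (667 ± 18.1), and LDE225 tumours of 16 h (636 ± 302), 4 h (506 ± 104) and 48 h (272 ± 10.1). Here too each group overlapped with the next, except LDE225 at 48 h, which lay below all other tumours. Ccnd2 was highest in LDE225 tumours of 48 h (2200 ± 66.0) and 16 h (2161 ± 473), followed by resistant tumours under 160 mg/kg/day (1847 ± 1298), 48 h vehicle tumours (1169 ± 89.6) and resistant tumours under 20 mg/kg/day (1098 ± 31.7). LDE225 tumours of 4 h were lowest (484 ± 179.5), below vehicle tumours of 16 h (515 ± 140.3) and of 4 h (684 ± 65.7). The groups overlapped with their neighbours, except between resistant tumours under 20 mg/kg/day and vehicle tumours of 4 h.

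Probe sets of 1 gene ran together over the 21 arrays. The other Ccnd1 probe sets correlated with 1448698_at at r = 0.926 and 0.973, and the other Ccnd2 probe sets with 1416122_at at r = 0.891 to 0.996, the lowest being 1416124_at, whose signal was 10.1 to 202. These share arrays and target, and the suffixes _a_at, _s_at and _x_at mark Ccnd2 probe sets that may detect further transcripts. Over the 8 group means of log2 signal, and with the 11 members left out of the ranking, the probe set most like Mycn was 1424950_at (Pearson r = 0.962), that most like Ccnd1 was 1426690_a_at (r = 0.990), and those most like Ccnd2 were 1434948_at (r = 0.989) and 1418282_x_at (r = 0.984). The tables used here give them no gene name.

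DNA copy number at the 3 genes was read as the mean log2 ratio of tumour over liver DNA, within 500 kb on each side (build mm8). At Mycn (chr12:12464302-13464302, 62 probes) it was 0.01, 0.01 and 0.02 in resistant tumours at 40, 80 and 160 mg/kg/day, against 0.04, 0.04 and 0.03 in vehicle tumours. All 6 tumours thus stood within 0.05 of 0 in this window. The difference in the window was -0.03 (SE 0.01, limma adjusted p = 0.177). The 1 probe named for Mycn read -0.08, -0.07 and -0.19 in resistant tumours, against 0.10, 0.01 and 0.06 in vehicle tumours.

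At Ccnd1 (chr7:144240476-145240476, 107 probes) the mean log2 ratio was -0.04, 0.01 and -0.03 in resistant tumours at 40, 80 and 160 mg/kg/day, against 0.09, 0.05 and 0.07 in vehicle tumours. At Ccnd2 (chr6:126604110-127604110, 111 probes) it was 0.41, 0.44 and 0.47 in resistant tumours, against 0.56, 0.53 and 0.55 in vehicle tumours. Ccnd2 was thus above 0 in all 6 tumours, as was chromosome 6 as a whole, whose median was 0.45 to 0.50. The resistant tumours were lower than vehicle by 0.09 at Ccnd1 (SE 0.02, limma adjusted p = 0.0258) and by 0.10 at Ccnd2 (SE 0.02, adjusted p = 0.0277), 2 of 3 genes called when 17.9% of the 25602 genes tested were lower and 18.9% were called in either direction.

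The resistant arrays had more noise between probes than the vehicle arrays. The SD of neighbouring probes was 0.335, 0.299 and 0.467 on resistant arrays and 0.174, 0.227 and 0.221 on vehicle arrays, and its part in the differences was not tested. Both calls were lost without any 1 of the vehicle arrays, though without 1 array the differences were -0.11 to -0.08 at Ccnd1 and -0.12 to -0.09 at Ccnd2. Over all genes 235 to 242 of 25602 were called without 1 vehicle array. Both were lost too with normexp signals, at -0.05 for Ccnd1 (adjusted p = 0.481) and -0.14 for Ccnd2 (adjusted p = 0.443). With the 6 probes named for the genes, 1 each for Mycn and Ccnd1 and 4 for Ccnd2, the differences were larger and not called. They were -0.17 for Mycn (adjusted p = 0.089), -0.24 for Ccnd1 (adjusted p = 0.0729) and -0.18 for Ccnd2 (adjusted p = 0.0685), when 1.22% of all genes were called. Without the 160 mg/kg/day tumour of contradictory labels both were called, at -0.09 for Ccnd1 (adjusted p = 0.0468) and -0.12 for Ccnd2 (adjusted p = 0.0375). The DNA and RNA tumours were not stated to be the same, so copy number and RNA were not compared tumour by tumour.

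**Figure D4:**
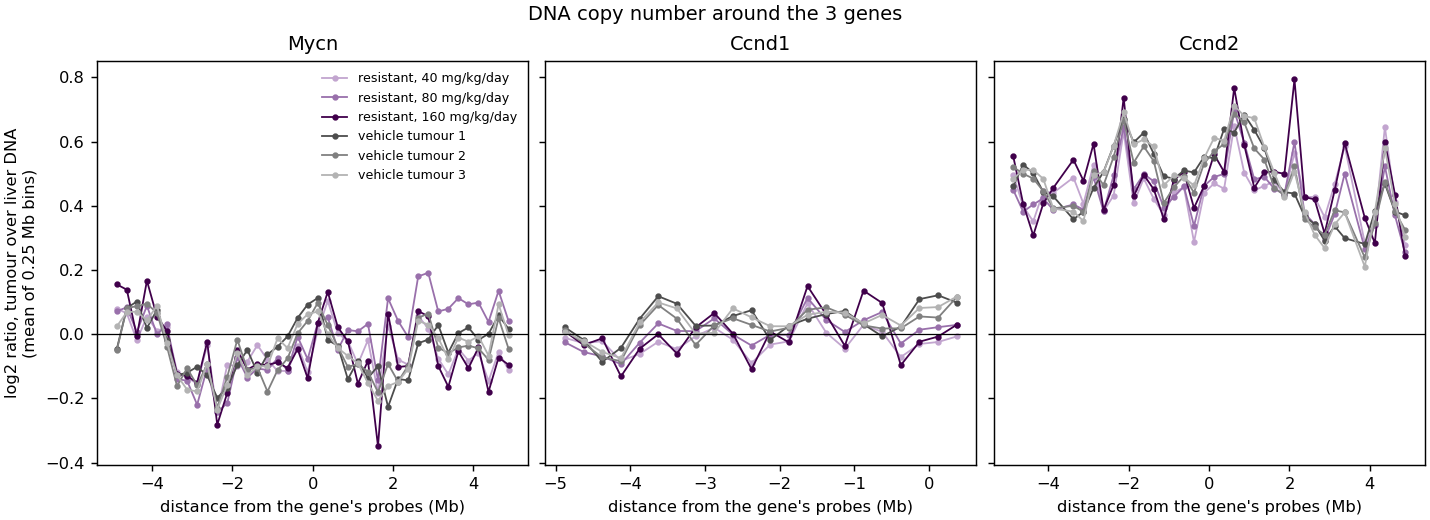
Mean log2 ratio of tumour over liver DNA (vertical) in bins along 5 Mb on each side of Mycn, Ccnd1 and Ccnd2 as far as probes reach (horizontal, distance in Mb), a line per tumour. The bins within 500 kb of the gene lie at -0.14 to 0.13 for Mycn, -0.10 to 0.12 for Ccnd1 and 0.29 to 0.64 for Ccnd2.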

How the data were processed

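The RNA values are linear intensities that the authors deposited, and the submitters' processing notes name MAS5; its version and scaling target are not given in the sources used here. Per the file headers, Feature Extraction 9.5.3.1 had read the DNA arrays (build mm8) and corrected the processed intensities used. The value table deposited by the authors for those arrays holds log10 ratios.

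Log2 of the deposited RNA intensity plus 4 was fitted with limma 3.58.1 (R 4.3.3) over 8 group means and 21 arrays, with a mean-variance trend and two-sided Benjamini-Hochberg adjusted p. The offset understates changes of dim probe sets. Probe sets under the 40th percentile of signal on all but 1 array or on every array were not tested, nor were 64 controls. No 2 arrays were identical (highest r = 0.981). For DNA, log2 of red (tumour, Cy5) over green (liver, Cy3) was centred on the autosomal median, averaged within 500 kb of each gene (at least 5 probes) and fitted with limma, 3 arrays a side, all scanned on 1 day.

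The members, lists and tests were chosen with earlier results of these data known. The text names the 11 members, the brightest probe set per gene and the probe sets most like it. Lists of pathway genes and of cell type markers were not used, and the tumour label was not checked against markers, since no table used here pairs other probe sets with genes. RefSeq (GRCm38.p6) gave the promoter for 1 of 3 genes. Mouse numbers were not used as pairs. Same-number correlations of the deviations from group means were -0.201 to 0.18 over 7 pairs. With 2 or 3 tumours in a group these cannot exclude pairing. The methods were tested on simulated data. The number of arrays limits the precision.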

Additional observations from a re-analysis of the deposited data

Results flagged for a closer look

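The effect of LDE225 differed between times for 3 Ccnd1 and 1 Ccnd2 probe sets when 48 h was set against 4 h, against 12.8% of all probe sets. The LDE225 effect at 48 h minus that at 4 h was -2.36 for 1417419_at, -2.09 for 1417420_at and -1.82 for 1448698_at of Ccnd1, each with LDE225 tumours below vehicle at both times. For Ccnd2 it was 2.18 for 1448229_s_at, whose signal at 4 h was 135, 132 and 145.5 in LDE225 tumours, against 194, 253 and 211 in vehicle tumours. At 48 h its signal was 717 and 807 in LDE225 tumours, against 349 and 195 in vehicle tumours. That Ccnd2 call (limma adjusted p = 0.0403) remained in 7 of 9 alternative settings, and the difference was 1.76 to 2.59 without 1 array.

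The LDE225 effect at 16 h minus that at 4 h passed the same test for 4 Ccnd2 probe sets, against 3.83% of all probe sets. It was 2.63 for 1416122_at, 2.42 for 1434745_at, 2.29 for 1448229_s_at and 2.41 for 1455956_x_at. Their limma adjusted p was 0.0365 to 0.0492, and each call remained in 2 to 7 of 9 alternative settings. All 4 moved the same way, as probe sets of 1 gene on the same arrays.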

How the results depend on the processing

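Counts of members called, which are of 11 probe sets, moved by over 1.5 times as follows. At 4 h (1 called) it was 0 without the trend, 3 with array weights and 2 with only the groups compared. Calls over all probe sets at 4 h were 17, 93 and 118 in these fits, against 34 with the usual settings. At 48 h (5) the member count was 10 with only the groups compared. The effect at 48 h minus 4 h (4) also gave 10. Calls over all probe sets went from 7462 to 5998 at 48 h and from 4204 to 5250 for that effect. The effect at 16 h minus 4 h (4) gave 2 with quantile normalization, 0 with median scaling and 0 without the trend. All calls were 1261, 606 and 876 in these fits, against 1258 with the usual settings. LDE225 at 48 h against 16 h (3) gave 5 with only the groups compared, when all calls went from 6948 to 9278. Resistant against vehicle (1) gave 0 with an offset of 1, no filter, no trend and the replicate block. This comparison also gave 0 with only the groups compared, vehicle of 48 h only, and resistant tumours of 20 mg/kg/day only. All calls were 3376, 2988, 3097, 3193, 2004, 441 and 2243 in that order, against 3540 with the usual settings. Resistant against LDE225 (5) gave 3 without the trend, with only the groups compared, or with either resistant dose alone, and 9 with array weights. All calls were 8257 without the trend, 7069 with only the groups compared and 8961 with array weights, against 8760 with the usual settings. They were 4258 with 20 mg/kg/day alone and 8770 with 160 mg/kg/day alone. Vehicle at 48 h against 4 h (0) gave 1 with array weights, when all calls went from 245 to 650. The DNA count (2) was 0 with normexp signals and with own probes. Over all genes 4830 were called with the usual settings, 0 with normexp signals and 312 with own probes. Whether the members moved more than all probe sets was not tested.

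Leaving out 1 array at a time gave 0 to 1 members at 4 h, 4 to 10 at 16 h, 4 to 10 at 48 h, 3 to 9 for the effect at 48 h minus 4 h, 0 to 7 for that at 16 h minus 4 h, 3 to 5 for LDE225 at 48 h against 16 h, 0 to 8 for resistant against vehicle, 3 to 10 for resistant against LDE225, 0 to 5 for 160 against 20 mg/kg/day, 0 for vehicle at 48 h against 4 h, and 0 to 2 genes for DNA. Calls over all probe sets moved in these fits too, between 2 and 45 at 4 h, 2846 and 5179 at 16 h, 2862 and 7975 at 48 h, 1523 and 4670 for the effect at 48 h minus 4 h, 599 and 1548 at 16 h minus 4 h, 2724 and 7489 for LDE225 at 48 h against 16 h, 1321 and 4405 for resistant against vehicle, 6485 and 9027 for resistant against LDE225, 4 and 1360 for 160 against 20 mg/kg/day, 7 and 113 for vehicle, and 235 and 6796 genes for DNA. The upper ends at 16 h and 48 h and of both effects came without resistant tumour 1 at 160 mg/kg/day, added after seeing the data, as were the fits by resistant dose. At 16 h vehicle tumour 1 left out gave 4, and LDE225 tumour 3 left out gave 5.

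The direction turned for these differences, none of them called with all arrays. Ccnd1 1448698_at, effect at 16 h minus 4 h, was -0.028 with median scaling and -0.10 with array weights, and -0.12 to 0.13 without 1 array; Mycn in that contrast was -0.0127 with array weights and -0.24 to 0.36 without 1 array. Ccnd2 1416122_at at 48 h against 16 h was -0.20 with median scaling and -0.14 to 0.17 without 1 array, and for 160 against 20 mg/kg/day -0.23 to 1.23. Mycn for 160 against 20 mg/kg/day was 0.0047 with median scaling and -0.62 to 0.40 without 1 array, and Mycn DNA was 0.0042 with normexp signals. The causes were not tested.

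Median scaling moved the median log2 difference of all probe sets by -0.14 at 16 h, -0.38 at 48 h, -0.31 for the effect at 48 h minus 4 h, -0.25 for LDE225 at 48 h against 16 h and -0.21 for resistant against vehicle; quantile normalization moved these by -0.09, -0.22, -0.19, -0.14 and -0.12. The share of calls that were higher, with the usual and then median scaling, was 54.7% and 32.2% at 16 h, 51.2% and 22.6% at 48 h, 47.7% and 26.2% for the effect at 48 h minus 4 h, 43.2% and 33% at 16 h minus 4 h, 49.7% and 27.5% for LDE225 at 48 h against 16 h, 60.1% and 19.2% for resistant against vehicle, and 84.5% and 69.4% for vehicle at 48 h against 4 h. Quantile normalization gave 40.9% at 48 h and 46.3% for resistant against vehicle, and leaving DNA uncentred 16.9% in place of 5.28%. Ccnd1 at 16 h and 48 h and Mycn at 48 h kept their calls in all 9 alternatives, and 6 Ccnd2 probe sets did at 16 h. With the mouse number as a replicate block, 9 members were called at 16 h and 5 at 48 h, and whether the numbers pair the samples was not settled.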
